A study of Mus musculus with 13 samples.

Results

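The comparison described here is of knee cartilage from mutant mice and from wild-type mice, both after surgical destabilisation of the medial meniscus (DMM), which loosens the knee and serves as a model of osteoarthritis. It comprises every region of 1 of the 3 deposited tables, 65969 of the 181833 regions listed in all. What was mapped is 5-hydroxymethylcytosine (5hmC) at CCGG sites by reduced representation hydroxymethylation profiling, in which a glucosyltransferase shields hydroxymethylated sites from a repeat cut by the enzyme MspI. The mutant DMM group (MUT DMM) carries the genotype label TET-/-, and the series concerns TET1. The wild-type DMM group (WT DMM) is TET1+/+. All mice were males with B6;129S4 as their mixed background, sampled 6 weeks after surgery, and the labels name no promoter or Cre driver that would limit the mutation to some cells. Age is stated as 3 to 4 months in one place and as 4 to 6 months in another. Each group has 3 labelled samples, but 2 of the 3 MUT DMM entries held the same library, so MUT DMM has 2 distinct libraries and WT DMM has 3. The labels do not say that each library is a separate animal, so the spread given here is between libraries and may be partly technical. Mutant sham knees were not analysed here, so an effect of genotype that is there without surgery cannot be told apart from one seen only after it. The control made without the glucosyltransferase was not analysed either, so signal at CCGG sites that does not come from 5hmC was not assessed.

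TET enzymes oxidise 5-methylcytosine to 5hmC, which is both a step towards unmethylated cytosine and a stable mark in its own right. In many tissues 5hmC is found along the bodies of active genes and at enhancers, while promoters rich in CpG dinucleotides (cytosine followed by guanine) tend to be unmethylated. TET1 has a CXXC domain that binds CpG-rich DNA, and it is enriched at such promoters in stem cells, whereas TET2 lacks that domain and TET3 has it in some isoforms. In chondrocytes, the cells of cartilage, 5hmC has been mapped in healthy and osteoarthritic joints, and the balance between matrix synthesis, matrix cleavage and hypertrophy is controlled by SOX, Wnt, TGF-beta, BMP and Hippo signals.

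The clearest contrast between regions went with the CpG content of promoters, so promoter sequences of list genes with changed regions are shown first, the 250 bases before the start of each gene as RefSeq gives it in GRCm38.p6, with CCGG in capitals. They were selected after values had been seen, as the 4 genes per direction with the smallest adjusted p among promoters whose groups did not overlap. The changed regions cover the printed bases only in part, so a marked CCGG need not lie in one. At Maml1 the region ends at base 50292340, short of the marked CCGG, and at Dnmt3a it begins at base 3806921, past most of the marked CCGG sites. Those touched by a region with more 5hmC in MUT DMM are of Ikzf1 (chr11:11685675-11685924, plus strand), a transcription factor of blood cells, Acvr2a (chr2:48813859-48814108, plus strand), an activin receptor, Maml1 (chr11:50292337-50292586, minus strand), a Notch coactivator, and Dnmt3a (chr12:3806730-3806979, plus strand), a DNA methyltransferase. They hold 44, 49, 18 and 38 CpG, and 6, 7, 1 and 7 CCGG sites, in that order.
Ikzf1: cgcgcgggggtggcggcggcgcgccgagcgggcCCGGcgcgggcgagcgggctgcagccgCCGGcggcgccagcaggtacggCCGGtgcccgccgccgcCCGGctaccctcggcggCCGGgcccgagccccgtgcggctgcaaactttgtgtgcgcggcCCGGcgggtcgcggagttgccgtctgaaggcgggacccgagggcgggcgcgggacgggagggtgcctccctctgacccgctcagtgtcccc
Acvr2a: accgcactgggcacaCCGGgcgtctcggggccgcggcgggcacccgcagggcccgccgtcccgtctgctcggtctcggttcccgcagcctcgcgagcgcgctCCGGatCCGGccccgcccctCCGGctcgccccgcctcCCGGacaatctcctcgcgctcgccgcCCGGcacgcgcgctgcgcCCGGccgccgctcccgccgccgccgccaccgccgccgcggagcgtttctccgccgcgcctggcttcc
Maml1: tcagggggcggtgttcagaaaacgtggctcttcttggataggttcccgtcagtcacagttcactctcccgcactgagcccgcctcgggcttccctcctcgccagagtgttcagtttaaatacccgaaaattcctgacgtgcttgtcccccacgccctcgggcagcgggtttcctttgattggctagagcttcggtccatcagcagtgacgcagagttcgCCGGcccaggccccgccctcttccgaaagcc
Dnmt3a: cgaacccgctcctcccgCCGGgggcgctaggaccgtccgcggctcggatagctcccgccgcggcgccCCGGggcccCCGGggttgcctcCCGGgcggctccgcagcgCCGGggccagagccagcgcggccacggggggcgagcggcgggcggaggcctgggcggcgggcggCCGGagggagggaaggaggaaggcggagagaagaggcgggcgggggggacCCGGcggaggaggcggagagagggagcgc
Those touched by a region with less 5hmC in MUT DMM are of Tsc1 (chr2:28640983-28641232, plus strand), an inhibitor of mTOR signalling, Wif1 (chr10:121033754-121034003, plus strand), a secreted Wnt inhibitor, Kdr (chr5:75978456-75978705, minus strand), a VEGF receptor of endothelial cells, and Cd79a (chr7:24897247-24897496, plus strand), part of the B cell receptor. They hold 16, 21, 16 and 6 CpG, and 0, 3, 6 and 1 CCGG sites, in that order.
Tsc1: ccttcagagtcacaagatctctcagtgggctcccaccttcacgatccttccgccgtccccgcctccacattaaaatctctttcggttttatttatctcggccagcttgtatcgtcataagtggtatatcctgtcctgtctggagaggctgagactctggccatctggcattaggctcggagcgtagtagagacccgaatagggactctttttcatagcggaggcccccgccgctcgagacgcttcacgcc
Wif1: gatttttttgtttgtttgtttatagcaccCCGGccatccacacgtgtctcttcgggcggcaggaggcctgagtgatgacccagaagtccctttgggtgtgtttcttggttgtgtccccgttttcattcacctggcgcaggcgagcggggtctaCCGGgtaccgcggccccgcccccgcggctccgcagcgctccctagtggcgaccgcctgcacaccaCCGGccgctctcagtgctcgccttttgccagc
Kdr: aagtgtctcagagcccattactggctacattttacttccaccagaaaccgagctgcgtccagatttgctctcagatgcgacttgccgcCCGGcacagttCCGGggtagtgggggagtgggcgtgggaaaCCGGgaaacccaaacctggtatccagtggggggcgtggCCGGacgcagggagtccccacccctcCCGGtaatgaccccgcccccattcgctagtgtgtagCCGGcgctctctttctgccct
Cd79a: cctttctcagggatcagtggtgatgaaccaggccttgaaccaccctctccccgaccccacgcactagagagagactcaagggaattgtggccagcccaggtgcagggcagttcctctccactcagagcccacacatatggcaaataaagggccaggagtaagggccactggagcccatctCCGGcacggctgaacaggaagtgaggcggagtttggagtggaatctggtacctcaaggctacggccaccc

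Depth differed widely between the libraries. In the listed regions the MUT DMM libraries held 5889464 reads (deeper) and 407929 (shallower), and the WT DMM libraries held 52972, 1961515 and 2899132 reads in the order in which the table lists them. Levels are the authors' normalized counts per region, on which 1 read was worth 0.234 and 3.55 in the MUT DMM libraries and 9.56, 0.752 and 0.609 in the WT DMM libraries. The first-listed WT DMM library, called near-empty below, was at 0 in 64.4% of regions, and any other value it shows rests on a few reads. Wherever values of single libraries are given, they stand in this order: deeper and shallower MUT DMM, then first-listed (near-empty), second-listed and third-listed WT DMM. A 0 in these 5 libraries allows up to 3 reads, which is 0.702, 10.7, 28.7, 2.26 and 1.83 normalized counts. Regions without a difference are not listed, so the data cannot show which genes were unaltered, and levels of 5hmC do not measure RNA or the share of a cell type. For the same reason the labelled tissue could not be checked by absent markers. Of the cartilage markers Col2a1 and Acan had 1 higher and 1 lower region each, Sox9 had 1 higher and 0 lower, and none was listed in Hapln1 or Comp.

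A region was called changed where the adjusted p in the authors' deposited table was under 0.05, which held for 65249 of the 65969 listed regions (98.9%). More regions had less 5hmC in the mutant than more of it: 22571 were higher in MUT DMM (34.2% of those listed) and 42678 were lower (64.7%). The higher and the lower regions lay at very different levels. A higher region had median values of 32.8 and 32 normalized counts in the MUT DMM libraries and 0, 23.3 and 18.3 in the WT DMM libraries, and the median fold was 2.05. A lower region had medians of 1.4 and 3.55 in MUT DMM and 0, 6.02 and 11 in WT DMM, and the median fold was 2.17. Higher regions were thus well covered in both groups, while lower regions were nearly empty in the mutant. Among regions with a mean of at least 10 normalized counts the majority turned, with 64.3% higher. With the third-listed WT DMM library left out, 53.5% of all changed regions were higher, but the near-empty library, mostly at 0, then makes up an equal share of the WT DMM mean. With both of these left out, so that the second-listed library alone stood for WT DMM, 33.8% were higher, and with the third-listed library alone 33.3% were.

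The spread between libraries was set against these calls in 2 ways. In 15119 higher regions (23.2% of the changed regions) and 12209 lower regions (18.7%) all libraries of one group lay above all libraries of the other. Without the near-empty library this held for 15934 higher (24.4%) and 34912 lower regions (53.5%). Non-overlap was thus found in 67% of all higher and 28.6% of all lower regions, and in 70.5% and 81.7% without that library. A 0 in the near-empty library makes non-overlap easier for higher and harder for lower regions. Counts of regions without overlap given below are to be read beside these shares. With 2 libraries against 3, the smallest two-sided p of an exact permutation test is 0.2, so no single region could pass such a test. The test used across regions was limma on log2(value + 1) with Benjamini-Hochberg adjustment. Over all 5 libraries it called 0 regions higher (0% of those listed) and 0 lower, with 2869 regions at an unadjusted p under 0.05. Without the near-empty library it called 3854 higher (5.84%) and 6519 lower (9.88%), with 24996 at an unadjusted p under 0.05. These calls rest on the mean-variance trend of the fit: with the same libraries and no trend, limma called 0 higher and 0 lower, with 22807 at an unadjusted p under 0.05. The limma counts and adjusted p of regions given in the results below are from the fit with the trend and without the near-empty library. The authors had already selected the listed regions for a difference between these same libraries, and most named regions were also chosen for non-overlap. Limma's p-values are favoured by that selection, so they describe the spread between libraries and are no independent test.

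Most changed regions over CpG-rich promoters had more 5hmC in the mutant, against the direction of most changed regions elsewhere. By how much differed between the wild-type libraries, and promoters without a listed region cannot be judged. Of 2891 changed regions that lay over a promoter window (250 bases before to 50 after a RefSeq gene start), 2433 were higher in MUT DMM (84.2%, exact Clopper-Pearson 95% interval 82.8 to 85.5). Of the 62358 changed regions elsewhere, 20138 were higher (32.3%, 31.9 to 32.7). Intervals here cover counting error only, since reads carried no molecular identifiers and neighbouring regions are not independent. The share followed the number of CpG in the window. It was 19.0% (14 to 25) of 210 regions over windows with 0 to 5 CpG, 48.8% (42.3 to 55.2) of 244 with 6 to 10, 86.7% (83.7 to 89.3) of 600 with 11 to 20, and 95.5% (94.4 to 96.4) of 1837 with over 20.

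**Figure D1:**
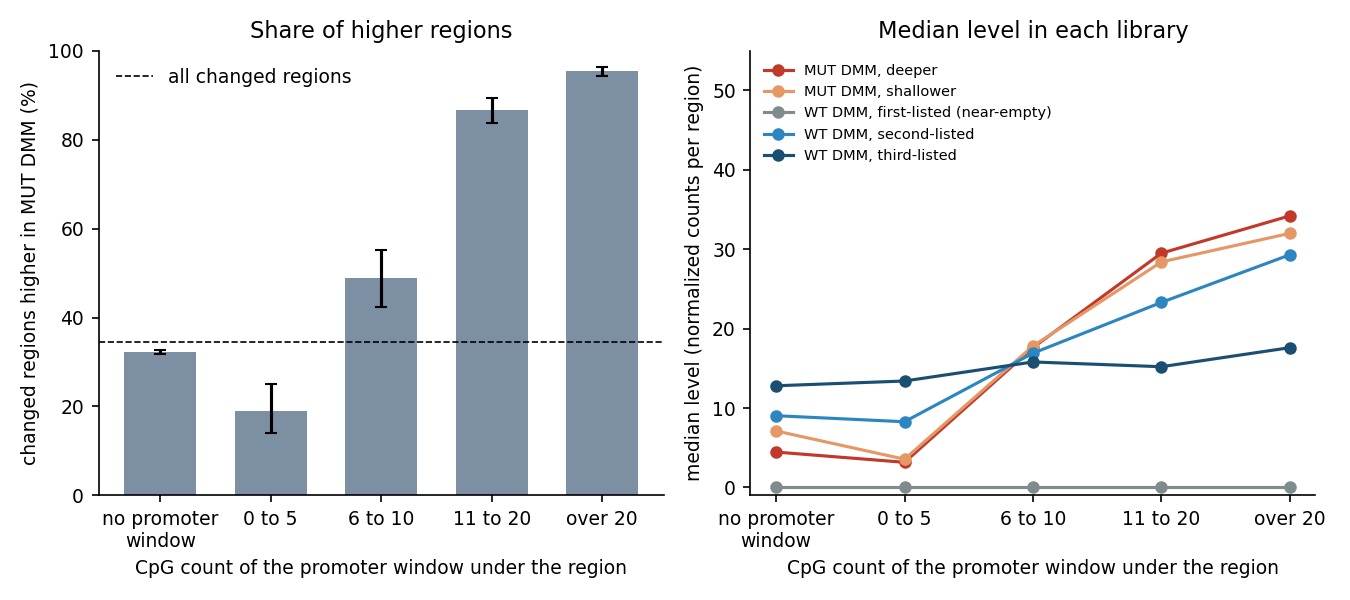
Left, the share of changed regions higher in MUT DMM (bars, percent) by the CpG count of the promoter window under the region, with exact 95% intervals, and the dashed line for all changed regions. Right, the median level of the same regions in each library, in normalized counts. The share climbs from 19.0% at 0 to 5 CpG to 95.5% at over 20 CpG, and over the CpG-rich windows both MUT DMM medians (34.2 and 32) lie above all 3 WT DMM medians (0, 29.3 and 17.6).

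Over windows with more than 20 CpG, both mutant libraries had higher medians than each wild-type library: 34.2 and 32 normalized counts in MUT DMM against 0, 29.3 and 17.6 in WT DMM. The second-listed WT DMM library lay close to the mutant ones there and the third-listed lay well below. The groups did not overlap in 938 of the 1754 higher and 38 of the 83 lower regions of this class. Over all changed regions this held for 67% of the higher and 28.6% of the lower, so these counts give the promoter pattern no further weight. The median log2 difference over the CpG-rich windows was 0.91, and 0.47 without the near-empty library. Over windows with 0 to 5 CpG the order was the reverse, with medians of 3.16 and 3.55 against 0, 8.27 and 13.4. The size of this difference depended on the wild-type library. Against the third-listed WT DMM library alone 95.8% of the regions over CpG-rich windows were higher in MUT DMM, and against the second-listed alone 64.9% were. Over windows with 0 to 5 CpG these shares were 18.1% and 22.4%, and away from promoters 30.9% and 32.6%. The share higher was thus larger at CpG-rich promoters than elsewhere against either library, and much closer to even against the second-listed. Limma called 131 higher and 6 lower of the 1837 regions over the CpG-rich windows. Of the 210 over windows with 0 to 5 CpG it called 5 higher and 34 lower. Over all listed regions it called 5.84% higher and 9.88% lower. The share called higher over the CpG-rich windows was thus near that over all regions, and few regions there were called lower.

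The difference between promoters and other regions was also present at matched levels. Where the WT DMM mean was over 10 and up to 20 normalized counts, 92% of 1352 promoter regions were higher in MUT DMM and 51% of 16190 regions elsewhere. At a WT DMM mean of up to 5 the shares were 59.2% of 211 and 15.4% of 14949. Over 50, they were 69.5% of 59 and 51.9% of 3053. These bands use the WT DMM values, which also enter the direction, so they describe the regions and test nothing. The share of each library's reads that fell over promoters restates these directions, since it is taken within regions selected as changed. Of the reads in changed regions, 7.25% and 6.65% lay over promoter windows in the MUT DMM libraries and 3.46%, 5.94% and 3.3% in the WT DMM libraries. Both mutant libraries thus lay above all 3 wild-type ones, and the second-listed WT DMM library was again the nearest to them.

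The search for CCGG, a palindrome that reads alike on both strands, found it in 52.8% of all 32851 RefSeq promoter windows (27025 genes) and in 94.2% of the 3298 windows that a changed region touched. Over windows with a CCGG 87.8% of 2723 changed regions were higher, and over windows without one 25% of 168 were. Windows with over 20 CpG made up 24.8% of all and 64% of those touched. The median window held 7 CpG over all genes, 27 under higher regions and 8 under lower regions. CCGG contains a CpG, so the counts of both overlap, and the assay reads CCGG sites only.

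Among the promoters printed above, the region over Acvr2a (chr2:48813901-48814260) stood at 37 and 32 normalized counts in the MUT DMM libraries and at 19.1, 19.6 and 15.8 in the WT DMM libraries. Both mutant libraries lay above all wild-type ones, and the near-empty library, with 2 reads, fell beside the other two. The group means were 34.5 ± 3.52 (SD, n = 2) against 18.2 ± 2.04 (n = 3), and limma's adjusted p was 0.0953. Over the end of the printed Dnmt3a bases (chr12:3806921-3807200) the values were 39.1 and 46.2 against 0, 30.8 and 19.5. At Maml1 (chr11:50292121-50292340), where the region barely reaches the printed bases, they were 33.2 and 42.6 against 0, 23.3 and 14. In both, the second-listed WT DMM library lay nearest to the mutant values, and limma's adjusted p was 0.115 for Dnmt3a and 0.0657 for Maml1. At Ikzf1 (chr11:11685801-11686000) the values were 27.4 and 21.3 against 19.1, 14.3 and 8.52, and with the libraries scaled to equal totals the sign of the difference in means turned (log2 -0.01). None of these 4 passed limma's threshold one by one. Of the lower promoters, Kdr (chr5:75978441-75978640) had the most reads, with 14.7 and 14.2 against 28.7, 27.1 and 25.6, means of 14.5 ± 0.368 (SD, n = 2) against 27.1 ± 1.56 (n = 3) and a limma adjusted p of 0.185. At Wif1 (11.2 and 14.2 against 47.8, 16.6 and 17.6) the wild-type mean rested on 5 reads of the near-empty library, and the other libraries lay close together. Tsc1 and Cd79a had 1 and 4 reads in the deeper mutant library and 0 in the shallower.

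The genes of the TET enzymes were examined next. Tet1 held 4 changed regions, Tet2 4 and Tet3 5, and all 13 were lower in MUT DMM, in a comparison in which 64.7% of listed regions were lower. No source used here says which part of Tet1 the mutant lacks, so its locus is no check of the genotype label. The Tet1 region with the most 5hmC (chr10:62866181-62866440) stood at 25.5 and 35.5 normalized counts in the MUT DMM libraries and at 19.1, 47.4 and 42.6 in the WT DMM libraries, so the near-empty library lay below both mutant ones and the groups overlapped. Groups overlapped in all 4 Tet1 regions, with limma adjusted p from 0.0799 to 0.362. At chr10:62832921-62833140 and chr10:62839881-62840160 the sign turned without the third-listed WT DMM library, to log2 differences of 0.07 and 0.78.

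Tet2 and Tet3 make 5hmC as Tet1 does, and each held a well-covered region with less 5hmC in the mutant. In Tet2 (chr3:133533481-133533860) the level was 53.4 and 64 normalized counts in the MUT DMM libraries and at 19.1, 111 and 134 in the WT DMM libraries. The second- and third-listed wild-type libraries were thus well above the mutant ones, the near-empty library with its 2 reads was below them, and limma's adjusted p was 0.00563. In Tet3 (chr6:83427061-83427520) the level was 21.1 and 21.3 normalized counts in the MUT DMM libraries and at 38.2, 40.6 and 59 in the WT DMM libraries. No libraries overlapped there, the means were 21.2 ± 0.191 (SD, n = 2) against 46 ± 11.4 (n = 3), and limma's adjusted p was 0.02. A further Tet3 region (chr6:83452521-83452900) had 5.15 and 0 against 19.1, 12.8 and 17.1 and a limma adjusted p of 0.0405. In 1 of the other Tet3 regions (chr6:83424361-83424580) the sign turned without the deeper MUT DMM library, to a log2 difference of 0.14.

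The rest of the machinery that writes, reads and removes DNA methylation had regions in both directions. Of the 27 genes listed for the whole machinery, which include Tet1, Tet2 and Tet3, 14 held a higher region (51.9%) and 16 a lower one (59.3%), and 5 held none. Over all 21887 protein-coding genes, 33.8% held a higher region and 38.2% a lower one, and in 23% and 18.2% such a region had libraries that did not overlap. For each direction, most lists had a larger share of genes with a region than that background. List genes were not matched to the background in length, and nothing particular to a list is read from these shares. In 7 of the 27 genes a higher region lay over the promoter, and in 0 a lower one. Since 84.2% of changed regions over all promoter windows were higher, such counts, here and in the lists that follow, show nothing particular to a list. Dnmt3a, Uhrf1, which brings DNMT1 to replicating DNA, and Dnmt1, the maintenance methyltransferase, had 1, 2 and 3 higher regions, beside 3, 0 and 2 lower ones, and the one over the Uhrf1 promoter (chr17:56304201-56304460) had 26 and 28.4 against 19.1, 9.78 and 14.6. Mbd5, of the methyl-CpG-binding family, had the highest fold of the higher regions named in this list (chr2:48958381-48958760), with 13.8 and 21.3 against 0, 0 and 4.87 and a limma adjusted p of 0.0224. Dnmt3b, a de novo methyltransferase, was lower inside the gene (chr2:153656721-153657220), with 4.21 and 0 against 19.1, 12 and 18.9 and a limma adjusted p of 0.0319. The shallower mutant library had 0 reads in that region, which allows up to 10.7.

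Collagen genes of cartilage held regions in both directions. Of 14 genes, 9 held a lower region and 6 a higher one, 3 held none, and 28 of their 38 regions were lower. Their median log2 difference was -0.72, near the -0.63 over all changed regions. Col27a1, a fibrillar collagen of cartilage, held 10 lower regions and 1 higher one. Its leading region (chr4:63292961-63293620) stood at 6.08 and 7.11 normalized counts in the MUT DMM libraries and at 19.1, 17.3 and 29.2 in the WT DMM libraries. All wild-type libraries were above both mutant ones, the means were 6.6 ± 0.728 (SD, n = 2) against 21.9 ± 6.42 (n = 3), and limma's adjusted p was 0.0575. Col9a3, a chain of type IX collagen on the surface of the fibrils, had 1.17 and 0 against 9.56, 6.77 and 10.3 at chr2:180604521-180604900 and a limma adjusted p of 0.0447. Col14a1, which binds to fibrils, held 6 lower regions and 0 higher. Col11a2 and Col16a1 went the other way, with 3 higher regions each and 0 lower. The highest of these, in Col16a1 (chr4:130090141-130090360), had 25.7 and 21.3 against 9.56, 8.27 and 17.6 and a limma adjusted p of 0.185. At Col12a1 (20.1 and 21.3 against 19.1, 10.5 and 8.52) equal totals turned the sign of the difference in means (log2 -0.17). Type II collagen, Col2a1, the main collagen of cartilage, had 1 region in each direction, and libraries overlapped in both.

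Proteoglycans and the proteins that link the matrix had 7 of 21 genes with a higher region and 11 with a lower one. Hspg2, which encodes perlecan of the matrix around chondrocytes, held 6 higher regions, 5 without overlap, and 2 lower ones. A higher Hspg2 region (chr4:137476541-137476820) stood at 28.1 and 24.9 normalized counts in the MUT DMM libraries and at 9.56, 15 and 12.2 in the WT DMM libraries, and a lower one (chr4:137539021-137539300) at 13.8 and 7.11 normalized counts in the MUT DMM libraries and at 19.1, 33.9 and 24.4 in the WT DMM libraries. Both separated the groups, and limma's adjusted p was 0.147 for the higher and 0.0415 for the lower. Epyc, a small leucine-rich proteoglycan, was the best covered of this list (chr10:97665821-97666080), with 67.8 and 78.2 against 57.4, 54.9 and 37.1. Its means were 73 ± 7.31 (SD, n = 2) against 49.8 ± 11 (n = 3), limma's adjusted p was 0.0944, and with equal totals the sign turned (log2 -0.15). Fn1, which encodes fibronectin, held 3 lower regions and 0 higher, and the intermediate layer proteins Cilp and Cilp2 held 2 and 1 lower regions, all 3 without overlap.

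Proteases that cut the matrix and their inhibitors had 22 of 43 genes with a higher and 23 with a lower region, and 14 with none. Timp2, an inhibitor of metalloproteinases, held 5 lower regions and 1 higher one. The lower region at chr11:118346421-118346800 had 2.11 and 0 against 9.56, 14.3 and 15.2. It was nearly empty in both mutant libraries (9 and 0 reads) and covered in the second- and third-listed wild-type ones (19 and 25 reads), and limma's adjusted p was 0.019. Adamtsl1, a relative of the ADAMTS proteases without their catalytic domain, held 8 lower and 3 higher regions, and the one at chr4:86269181-86269400 had 5.85 and 0 against 9.56, 19.6 and 12.2 (limma adjusted p 0.0387). Mmp2, gelatinase A, held 3 higher regions and 0 lower, all 3 without overlap. Its leading region (chr8:92828781-92829060) had 28 and 2 reads in MUT DMM and 0, 0 and 2 in WT DMM, a ratio of pooled normalized reads of 10.1 with an exact counting interval of 2.57 to 87.5. That region lies on chromosome 8 near Fto, in a stretch with other strongly higher regions described below. Adamts5, the main aggrecanase of mouse cartilage, held 2 higher regions and 0 lower. Mmp13 and Adamts4 held none.

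Transcription factors of chondrocytes held more regions per gene than any list above, 177 over 35 genes, and 130 of them were lower (median log2 difference -0.66). Sox5 held 19 lower and 2 higher regions, Nfia 12 and 1, Zbtb20 11 and 4, Sox6 9 and 2, and Creb5 9 and 1. Runx1 and Trps1 held 7 lower regions each and 0 higher. These are long genes, and regions in long genes were mostly lower over the whole genome. The leading Sox5 region (chr6:144782141-144782500) stood at 10.1 and 7.11 normalized counts in the MUT DMM libraries and at 19.1, 30.8 and 21.3 in the WT DMM libraries. Its libraries did not overlap, and limma's adjusted p was 0.0515. Hdac4, a deacetylase that holds back hypertrophy, had one of the best covered lower regions (chr1:92088661-92089320), with 19.6 and 17.8 against 38.2, 46.6 and 48.1. All wild-type libraries were well above both mutant ones there, the means were 18.7 ± 1.33 (SD, n = 2) against 44.3 ± 5.32 (n = 3), and limma's adjusted p was 0.0123. Arid5b, a cofactor of SOX9, had 2.34 and 0 against 9.56, 14.3 and 11.6 at chr10:68133261-68133520 (limma adjusted p 0.0314). Zfp219, another SOX9 cofactor, held 3 higher regions and 0 lower. The leading one (chr14:52013861-52014220) had 35.6 and 42.6 against 9.56, 21.8 and 13.4 and a limma adjusted p of 0.0417. Sox9 itself, a short gene, held 1 higher region. In 6 genes of this list a higher region lay over the promoter, and in 0 a lower one.

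Genes of hypertrophy and mineralisation had 12 of 23 with a higher region and 8 with a lower one. Enpp1, which makes the mineralisation inhibitor pyrophosphate, had a lower region (chr10:24651161-24651540) at 21.5 and 21.3 normalized counts in the MUT DMM libraries and at 38.2, 41.4 and 44.4 in the WT DMM libraries. Its libraries were close within each group and did not overlap, with means of 21.4 ± 0.141 (SD, n = 2) against 41.4 ± 3.1 (n = 3), and limma's adjusted p was 0.061. The receptor Pth1r, which delays hypertrophy, had 11.9 and 17.8 against 19.1, 32.3 and 25.6 (chr9:110731921-110732180, limma adjusted p 0.124), so the near-empty library and the shallower mutant library lay close together. Ihh, the hedgehog ligand of prehypertrophic cells, was higher (chr1:74951161-74951540), with 51 and 49.8 against 0, 36.9 and 24.4 and a limma adjusted p of 0.108. Ank, a transporter for pyrophosphate, held 7 lower regions and 1 higher one, and Fgfr3, a brake on growth of cartilage, held 3 higher and 0 lower.

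Wnt signalling had the largest share of genes with a higher region among the lists, 53 of 69 (76.8%), and 38 genes held a lower region (55.1%). Among ligands, receptors and secreted inhibitors, many genes held 1 or 2 regions. Fzd7, a Wnt receptor, held 3 higher regions without overlap and 0 lower. Lgr5, a receptor for R-spondins, had a higher region (chr10:115535781-115536100) at 29.9 and 39.1 normalized counts in the MUT DMM libraries and at 0, 9.78 and 13.4 in the WT DMM libraries. Both mutant libraries were well above each wild-type one, and limma's adjusted p was 0.0191. Within the cell, Tle3, a corepressor of TCF factors, had a lower region (chr9:61393181-61393600) at 17.8 and 21.3 normalized counts in the MUT DMM libraries and at 38.2, 46.6 and 70 in the WT DMM libraries. The groups did not overlap, the means were 19.6 ± 2.51 (SD, n = 2) against 51.6 ± 16.5 (n = 3), and limma's adjusted p was 0.00148. Tcf7l1, a TCF factor, held 9 lower and 3 higher regions, the leading higher one (chr6:72788461-72788740) with 34.2 and 39.1 against 9.56, 20.3 and 14 (limma adjusted p 0.0592). The coreceptor Lrp6 held 7 lower regions and 0 higher. In 8 Wnt genes a higher region lay over the promoter, and in 1, Wif1, a lower one.

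TGF-beta and BMP signalling had nearly equal numbers, 36 of 57 genes with a higher and 35 with a lower region, with 10 promoters higher and 1 lower. Ltbp3, which binds latent TGF-beta in the matrix, had a lower region (chr19:5753581-5754020) at 11.5 and 7.11 normalized counts in the MUT DMM libraries and at 19.1, 27.1 and 29.8 in the WT DMM libraries. All libraries separated the groups, and limma's adjusted p was 0.0333. Fstl3, which traps activins, had 5.85 and 0 against 19.1, 12 and 21.3 (chr10:79780341-79780620, limma adjusted p 0.0339). The BMP receptor Acvr1 held 7 lower regions, 4 of them without overlap, and 3 higher ones, all 3 without overlap. The leading lower one (chr2:58447121-58447680) had 11.9 and 14.2 against 28.7, 27.8 and 32.9 and a limma adjusted p of 0.0692. The ligand Bmp6 had a higher region (chr13:38439161-38439420) with 23.2 and 28.4 against 19.1, 11.3 and 9.13 (limma adjusted p 0.0783). Smad3, which carries the TGF-beta signal to the nucleus, held 7 lower regions and 1 higher, and the inhibitor Smad6 held 5 lower and 0 higher.

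Insulin, IGF and mTOR signalling had 24 of 38 genes with a higher and 27 with a lower region. Igf1r, the IGF1 receptor, held 10 lower regions and 1 higher one, and both directions were well covered. At the lower region (chr7:68102301-68102740) the values were 11.7 and 7.11 against 19.1, 30.1 and 33.5, and at the higher one (chr7:67952961-67953240) they were 30.9 and 39.1 against 0, 14.3 and 15.8. Both separated the groups, and limma's adjusted p was 0.0151 for the lower and 0.0516 for the higher. Rps6ka2, a kinase of the RSK family, held 11 lower and 3 higher regions. Its lower region at chr17:7183801-7184220 had 14.7 and 7.11 against 38.2, 30.1 and 34.1 and a limma adjusted p of 0.0214. Irs2, an insulin receptor substrate, had 26.2 and 28.4 against 38.2, 45.9 and 59 (chr8:11005041-11005480, limma adjusted p 0.0555).

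The Hippo pathway, which restrains the coactivators YAP1 and TAZ, held one of the sharpest differences among the lists. Stk3, one of its core kinases (MST2), had a higher region (chr15:35116401-35116780) with 103 and 9 reads in MUT DMM and 1, 0 and 4 in WT DMM. The levels were 24.1 and 32 against 9.56, 0 and 2.44, the means 28 ± 5.58 (SD, n = 2) against 4 ± 4.97 (n = 3), and limma's adjusted p was 0.000616. Stk3 held 3 other higher and 4 lower regions, so its direction differed between sites. Mob1b, an adaptor of the kinases that phosphorylate YAP1, had a lower region (chr5:88739401-88739840) at 18.9 and 7.11 normalized counts in the MUT DMM libraries and at 38.2, 39.9 and 38.4 in the WT DMM libraries. The 3 wild-type libraries lay within 2 normalized counts of each other, and limma's adjusted p was 0.00579. The atypical cadherin Fat4 was higher (chr3:38885481-38885700), with 12.4 and 35.5 against 0, 3.01 and 3.65 (limma adjusted p 0.0252). Over the list, 16 of 24 genes had at least 1 higher region and 17 at least 1 lower one.

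Notch signalling had 16 of 23 genes with a higher region (69.6%) and 10 with a lower one (43.5%). The ligands Jag1, Jag2, Dll1, Dll3 and Dll4 held higher regions only, 7 in all, and so did the target genes Hes1, Hes5, Hey1 and Heyl, with 6. The ligand Jag2 (chr12:112928821-112929120) had 40.5 and 42.6 against 9.56, 28.6 and 15.2, with a limma adjusted p of 0.0664, and the target Hey1 (chr3:8666981-8667240) had 44.2 and 49.8 against 0, 37.6 and 22.5, with 0.143. In both, the second-listed wild-type library lay closest to the mutant ones. These sets were picked out by role after values had been seen. Hey2, a further target, held no region, and libraries overlapped in the regions of Hes1 and Heyl. Over all changed regions, 58% were higher in genes of up to 10 kb and 95.5% over promoter windows with over 20 CpG. Nothing particular to Notch is therefore read from these counts. The coactivator Maml3, a long gene, held 15 lower and 3 higher regions, and its leading region (chr3:51763161-51763600) stood at 22.2 and 14.2 normalized counts in the MUT DMM libraries and at 38.2, 43.6 and 48.1 in the WT DMM libraries. No libraries overlapped, and limma's adjusted p was 0.0127. The receptor Notch1 held 6 lower and 3 higher regions.

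Inflammatory and NF-kB genes had 17 of 42 with a higher region and 17 with a lower one, close to the background, and 16 with none, among them Il1b, Il6, Nos2 and Ptgs2. Over their promoters 9 genes held a higher region and 0 a lower one, beside 84.2% higher over all promoter windows. Socs1, a feedback inhibitor of cytokine signalling, had a higher region (chr16:10784141-10784460) at 29 and 32 normalized counts in the MUT DMM libraries and at 19.1, 14.3 and 8.52 in the WT DMM libraries. Both mutant libraries lay above all wild-type ones, and limma's adjusted p was 0.0397. Nfkb1, which encodes a subunit of NF-kB, held 3 higher regions, all 3 without overlap, and 2 lower ones. The kinase Jak2 held 4 lower regions and 0 higher, and at chr19:29266421-29266800 it had 2 and 0 reads in MUT DMM and 1, 8 and 10 in WT DMM. The kinase Chuk (IKK-alpha) had 4.21 and 7.11 against 9.56, 15.8 and 18.9 (chr19:44106361-44106880, limma adjusted p 0.117).

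**Figure D2:**
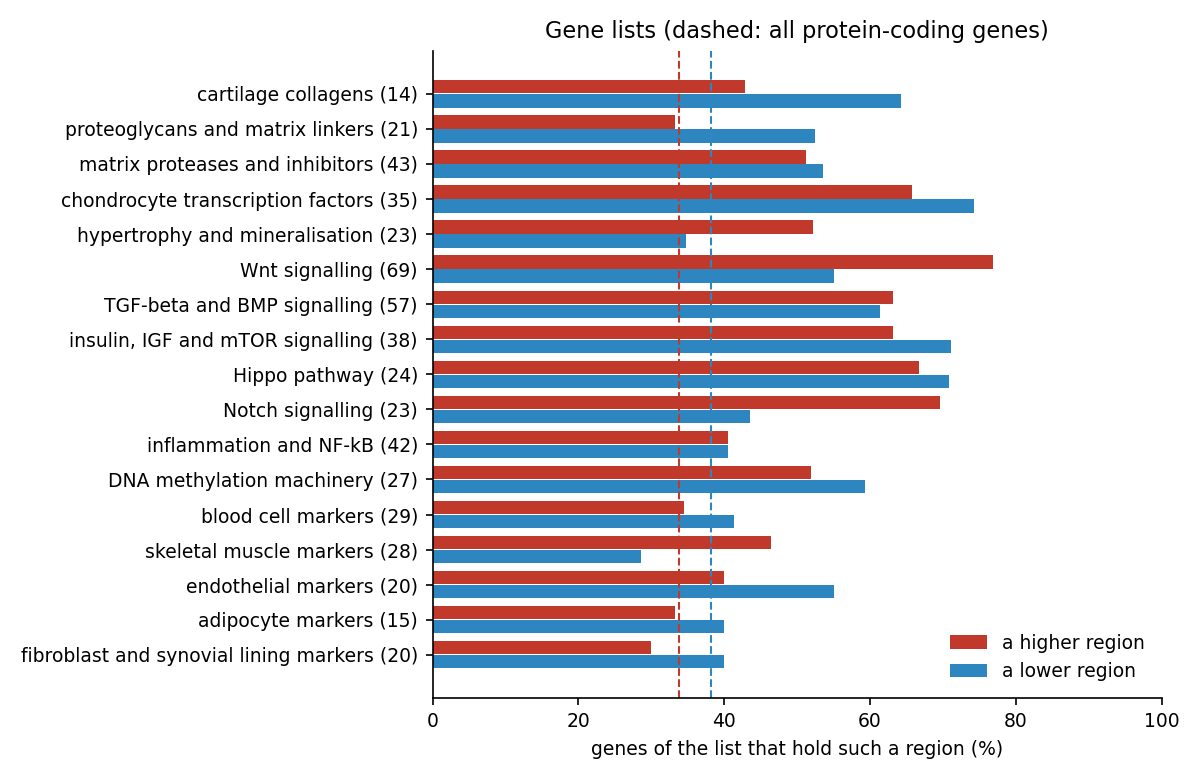
The share of genes in each list that hold a region higher (red) or lower (blue) in MUT DMM, in percent, with the number of genes in brackets; dashed lines mark 33.8% and 38.2% of all protein-coding genes. Wnt and Notch signalling have the longest red bars, at 76.8% and 69.6%, and chondrocyte transcription factors the longest blue bar, at 74.3%.

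Markers of other cells that a joint sample can hold were counted beside these lists. Among 29 blood cell genes, 10 had a higher region and 12 a lower one, of 28 muscle genes 13 and 8, of 20 endothelial genes 8 and 11, of 15 adipocyte genes 5 and 6, and of 20 genes of fibroblasts and the synovial lining 6 and 8. Shares with a higher region ran from 30% to 46.4%, and shares with a lower one from 28.6% to 55%, on both sides of the background of 33.8% and 38.2%. Some markers held no listed region, such as Cd3e, Csf1r, Hba-a1, Myod1, Cdh5 and Fabp4. Others did: Ptprc, Cd79a and Adipoq held 1 lower region each, Pecam1, Kdr and Plvap 2 lower each, and Ckm 3 higher and 1 lower. Since regions without a difference are not listed, a marker without a region shows nothing about its cell type. A 5hmC level does not give the share of a cell type, and the part of cell mixture in the results was not tested.

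Regions of these genes chosen by the same rule as in the other lists had the following levels. Plvap, a protein of the pores of endothelial cells, had a lower region (chr8:71497961-71498220) at 29.9 and 7.11 normalized counts in the MUT DMM libraries and at 38.2, 60.9 and 55.4 in the WT DMM libraries. The mutant libraries differed from each other there, with the shallower at 2 reads, and limma's adjusted p was 7.47e-05. Gata1, a factor of red cell precursors on the X chromosome, was higher (chrX:7974521-7974900), with 27.4 and 56.9 against 19.1, 7.52 and 9.13 and a limma adjusted p of 0.000822. Pax3, of muscle precursors, was higher at chr1:78149561-78149940, with 22 and 64 against 0, 4.51 and 11.6 (limma adjusted p 0.00093), and lower at chr1:78196981-78197340, with 15.7 and 14.2 against 47.8, 18.1 and 25.6 (limma adjusted p 0.378). The mutant libraries were far apart in the first, and the second rests on 5 reads of the near-empty library. Dmd, which encodes dystrophin, had a higher region (chrX:82940801-82941180) at 47.3 and 64 normalized counts in the MUT DMM libraries and at 19.1, 24.1 and 21.3 in the WT DMM libraries, where every library of one group was well apart from the other (limma adjusted p 0.00949), and 10 lower regions. Runx3, of T cells and of chondrocytes, had 26.2 and 24.9 against 38.2, 67.7 and 49.9 (chr4:135147461-135148080, limma adjusted p 0.0132).

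**Figure D3:**
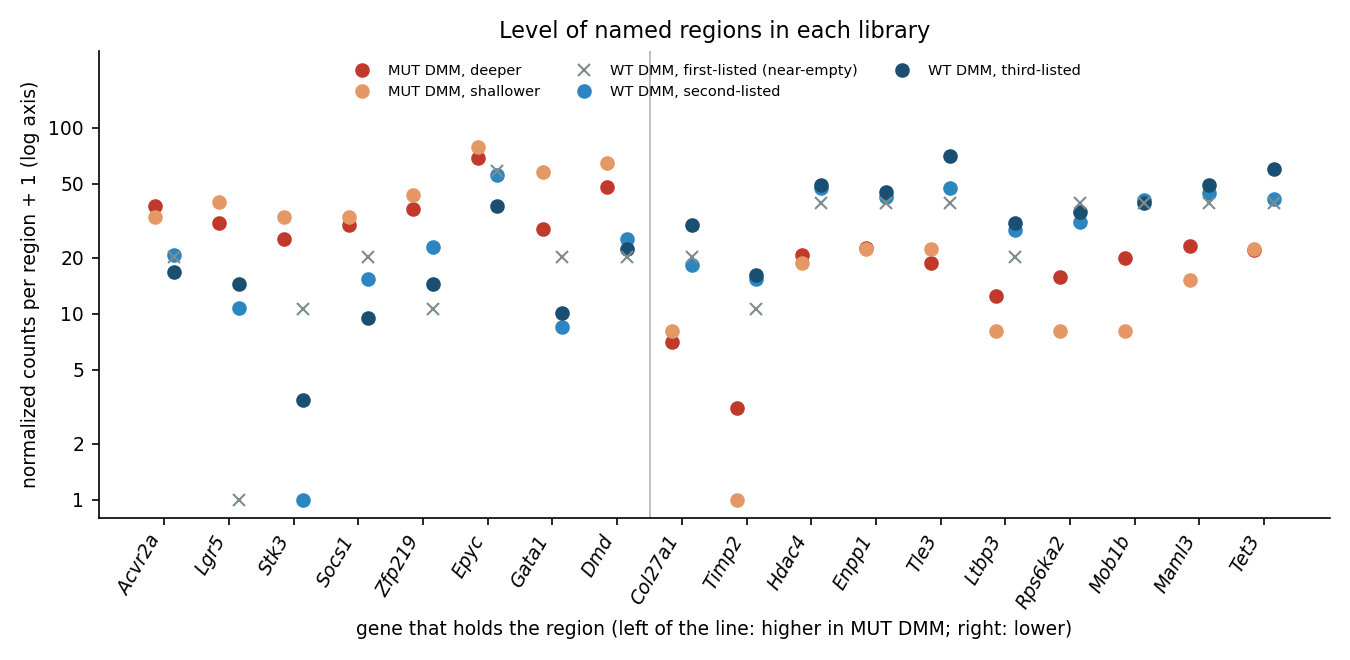
Level of 1 region in each of 18 genes named in the text, in normalized counts + 1 on a log axis, with 1 point per library (red and orange, MUT DMM; blue, WT DMM; grey crosses, the near-empty WT DMM library). Left of the line both MUT DMM libraries lie above all WT DMM libraries, and right of it below them; Stk3 and Timp2 have the widest gaps between the MUT DMM libraries and the second- and third-listed WT DMM libraries.

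Across all genes, 16410 held a changed region, and 54.4% of changed regions lay inside a gene. RefSeq bounds carry no exons here, so exonic and intronic regions were not told apart. Among protein-coding genes with the most higher regions, Fto, an RNA demethylase, held 21 higher and 11 lower, and 20 of the higher ones had libraries without overlap. Flg2 and its neighbour Flg, which encode filaggrin proteins of the skin barrier and are built of repeats, held 20 and 11 higher regions and 0 lower. The leading Flg2 region (chr3:93208681-93209180) stood at 54.8 and 64 normalized counts in the MUT DMM libraries and at 38.2, 24.8 and 20.1 in the WT DMM libraries, with 4 reads in the near-empty library and a limma adjusted p of 0.00329. Camta1, a transcription activator, held 16 higher and 11 lower, Astn2, of neurons, 13 of each, and Pax2, a factor of kidney development, 8 higher and 0 lower. The antigen-receptor loci, which span up to several megabases, held many in both directions, 28 higher and 50 lower in Igk, 23 and 20 in Tcra and 13 and 40 in Igh. Protocadherin cluster entries on chromosome 18 share the same 14 higher and 15 lower regions and count as 1 locus.

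Several of the genes with the most lower regions were long ones. Wwox, an oxidoreductase gene that spans a common fragile site, held 23 lower and 1 higher, Robo1, an axon guidance receptor, 21 and 5, and Lrp1b, a lipoprotein receptor relative, 21 and 8. In 204 genes with at least 5 changed regions all were lower, and in 17 all were higher. Those with the most lower regions and 0 higher included Anks1b and Vps13b (17 each), Nedd4l (16), Aff3 (15), Ldlrad3 and Rad51b (13 each) and Smyd3 (12). Aff3, a component of elongation complexes, had at chr1:38267081-38267500 13.8 and 7.11 against 19.1, 41.4 and 38.4 and a limma adjusted p of 0.00188. Nedd4l, a ubiquitin ligase that acts on SMAD proteins, had 9 lower regions without overlap, the leading one with 7.25 and 7.11 against 19.1, 13.5 and 23.1 (chr18:64973741-64974120, limma adjusted p 0.167). The leading Wwox region (chr8:114530901-114531360) had 17.6 and 28.4 against 38.2, 30.1 and 47.5, so the shallower mutant and the second-listed wild-type library nearly met (limma adjusted p 0.147). Zfp993, Zfp978, Sfi1 and 4930467E23Rik also ranked high, with 34, 28, 26 and 17 lower regions. They belong to families with near-identical copies, and reads could not be assigned to 1 copy with certainty.

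Gene length went with direction. Of changed regions in protein-coding genes of up to 10 kb, 58% were higher in MUT DMM (exact 95% interval 56 to 60, 2454 regions). The share was 47.5% in genes of 10 to 30 kb, 36.5% at 30 to 100 kb, 29.2% at 100 to 300 kb and 30% (28.8 to 31.3, 5560 regions) over 300 kb. Without the regions over promoter windows the shares were 52.7%, 41%, 31.4%, 26.3% and 29%. Short genes thus differed from long ones away from their promoters too. Outside protein-coding genes 32.4% of 35352 regions were higher. Median levels moved with length as well, from 24.6 and 21.3 in MUT DMM against 0, 21.1 and 15.8 in WT DMM in the shortest genes to 2.81 and 3.55 against 0, 7.52 and 11 in the longest. The part of level in the relation with length was not tested.

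**Figure D4:**
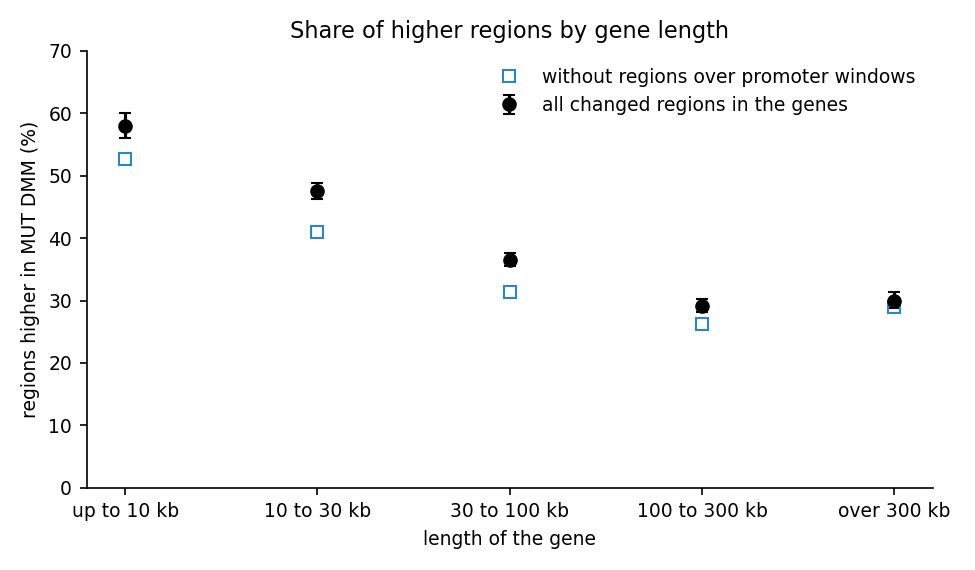
The share of changed regions higher in MUT DMM (percent) by the length of the protein-coding gene that holds them, with exact 95% intervals (black), and the same without regions over promoter windows (blue squares). The share is 58% in genes of up to 10 kb and 30% in genes over 300 kb.

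The regions inside genes with the largest folds were chosen for their fold, so their sizes are a description. Higher in MUT DMM, and well covered in both mutant libraries, were Gm42031 (chr8:85125821-85126340), a predicted gene, with 63.4 and 88.9 against 0, 0.75 and 4.26, and LOC115486453 (chr7:26926881-26927500), with 60.4 and 42.6 against 0, 0 and 1.22. Fto held 3 such regions. Those at chr8:91433901-91434320 and chr8:91430961-91431380 had 48.2 and 92.4 against 0, 2.26 and 3.65 and 54.5 and 85.3 against 0, 1.5 and 5.48. Larp6, which binds collagen mRNA, had 50.5 and 56.9 against 0, 5.27 and 3.65 (chr9:60731761-60732160), and Prkg1, a cGMP-dependent kinase, had 88.9 and 42.6 against 0, 4.51 and 6.7 (chr19:31722841-31723220). In these regions the second- and third-listed wild-type libraries held 0 to 11 reads, beside 206 to 380 in the deeper mutant library, and limma's adjusted p ran from 1.34e-12 to 1.31e-07. The other 4 regions of this rule, in Tmem267, Ciapin1, Gm46399 and Fto, had 10 reads in the shallower mutant library and limma adjusted p from 0.00512 to 0.0204. Tmem267, at 12 and 10 reads against 0, 0 and 0, lies in a gene with near-identical copies. The regions in Gm42031, Fto and Ciapin1 all lie on chromosome 8 between base 85125821 and base 94826480, and so does the leading Mmp2 region. They are neighbours in the genome and are not to be read as separate findings on single genes. Whether they share an origin was not tested.

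Large folds among lower regions rest on few reads. In Dnah7c, a dynein gene, the region at chr1:46625801-46626020 had 1 and 0 reads in MUT DMM and 1, 14 and 11 in WT DMM. The ratio of pooled normalized reads between WT DMM and MUT DMM was 38.5 with an exact counting interval of 6.32 to 1578, so its size is poorly known. Ccdc88c, which binds Dishevelled, had 1 and 0 against 1, 12 and 12 reads (chr12:100984321-100984700), with a ratio of 37 (6.06 to 1520). Limma's adjusted p was 0.0153 for Dnah7c and 0.0165 for Ccdc88c.

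Every autosome held more lower than higher regions. The share of higher ones ran from 30.9% (29.4 to 32.5) on chromosome 10 to 37.8% (36.2 to 39.4) on chromosome 8, and chromosomes X and Y both had 37.7%. Among regions without overlap between the groups, the autosomes ran from 49.4% higher on chromosome 10 to 57.8% on chromosome 8, while X had 64.7% (600 higher and 328 lower) and Y 75% (570 and 190). Without the near-empty library lower regions were the majority on all of them, with 27.1% to 34.7% higher on the autosomes, 37% on X (619 higher and 1053 lower) and 39.9% on Y (589 and 888). The sex chromosomes stood above every autosome by both counts. Much of the Y chromosome is built of near-identical copies, so the place of reads there is uncertain. All mice were male by the labels. Of the reads in listed regions, the share on the Y chromosome was 3.27% and 3.57% in MUT DMM and 2.89%, 2.65% and 2.67% in WT DMM, and on X it was 3.93% and 3.98% against 3.96%, 3.72% and 4.07%. Both mutant libraries thus had the higher share on Y and not on X. As with the promoter shares above, only preselected regions enter these shares. They are therefore no evidence apart from the directions of the regions on X and Y. Unplaced contigs had 18.3% of 459 regions higher.

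**Figure D5:**
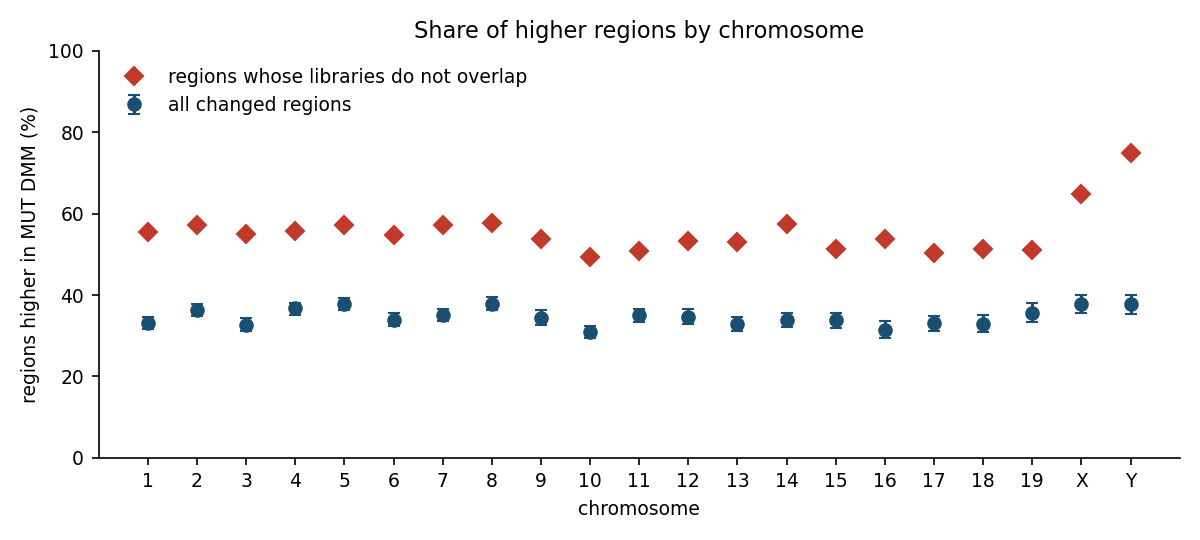
The share of changed regions higher in MUT DMM (percent) by chromosome, for all changed regions with exact 95% intervals (blue) and for those whose libraries do not overlap between the groups (red diamonds). Blue points stay between 30.9% and 37.8%, and the red points of X (64.7%) and Y (75%) lie above those of the autosomes.

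Within chromosomes the share varied more. Among 549 bins of 5 Mb with at least 30 changed regions, the median share of higher regions was 34.1%, the middle 50% of bins lay between 29.3% and 38.9%, and 22 bins were over 50%. Of those 22, 3 were on chromosome 8 and 3 on chromosome 2. The highest were chromosome 4 from 150 to 155 Mb (61.2% of 214), chromosome 2 from 180 to 185 Mb (61.1% of 72), chromosome 19 from 0 to 5 Mb (60.6% of 71), chromosome 13 from 120 to 125 Mb (60% of 35) and chromosome 2 from 155 to 160 Mb (59.8% of 244). The lowest were chromosome Y from 90 to 95 Mb (16% of 94), chromosome 2 from 95 to 100 Mb (16.9% of 89) and from 100 to 105 Mb (18.2% of 132), chromosome 17 from 0 to 5 Mb (17.6% of 51) and chromosome 3 from 115 to 120 Mb (18.4% of 87). In the chromosome 13 bin all 21 higher regions and 0 of the lower ones had libraries without overlap, and 21 and 9 had once the near-empty library was left out. In the bin of chromosome 2 from 155 to 160 Mb this held for 118 higher and 22 lower regions, and without that library for 125 and 83.

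The mitochondrial genome held 8 changed regions. From base 6241 to 6540 the level was 488 and 547 normalized counts in the MUT DMM libraries and 57.4, 341 and 396 in the WT DMM libraries, so both mutant libraries were higher. The other 7 regions were lower and much weaker, and in each the third-listed WT DMM library was the highest, such as 27.6 and 21.3 against 9.56, 41.4 and 115 from base 1 to 480. The second-listed WT DMM library lay nearer to the mutant ones than the third-listed did in each of them. Without the near-empty library, 6 of these 7 regions had libraries without overlap, and limma called 6 mitochondrial regions lower and 0 higher. The higher region shares bases with the lower region that runs from base 6361 to 6620.

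For some named regions the tables with sham knees list an overlapping region. Those tables share libraries with this one and are scaled differently, so their means are given side by side and not compared. At Larp6, MUT DMM stood at 155 and WT sham at 90.4 in one table, and WT DMM at 5.2 and WT sham at 54.7 in the other. In the Stk3 region the means were 80.4 in MUT DMM and 21.1 in WT sham, and in the Mmp2 region 36.6 and 4.69. At Timp2 they were 3.31 in MUT DMM and 38.6 in WT sham, and at Hdac4 none was listed. At Tmem267, where MUT DMM was higher than WT DMM, MUT DMM stood at 49.3 and WT sham at 85.2 in one table. In the other, WT DMM stood at 7.07 and WT sham at 50.3. At Gata1 WT DMM stood at 9.78 and WT sham at 28.1, and at Igf1r (the lower region) at 46.6 and 21.2. The mutant was thus above sham at Larp6, Stk3 and Mmp2 and below it at Timp2 and Tmem267. Wild-type DMM was below sham at Larp6, Tmem267 and Gata1 and above it at Igf1r. Each of these had an adjusted p under 0.05 in the authors' deposited table. The regions given are examples, and a region higher than in WT DMM need not be above sham.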

How the data were processed

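The labels list 13 samples in 5 groups, of which MUT DMM and WT DMM were compared here. Per the submitters' processing notes, reads were handled with HISAT2 2.1.0 on mm10, Trim Galore 0.5.0, bedtools, SAMtools and bcl2fastq 2.20.0, and the labels' protocols give 15 PCR cycles. No source used here names the region caller. Per the file headers, the authors deposited p-values and adjusted p-values for each region and its best window, the mean signal per group, and normalized counts of 3 libraries joined in one cell. The largest window p-value was 0.0001, which leaves out regions that did not differ. These joined values are normalized counts and not raw counts, and they were whole multiples of 1 read per library (within 0.02), from which reads were recovered. EdgeR was not run because the values are joined, normalized and preselected. The repeated MUT DMM library was counted once, and direction was taken from the means of distinct libraries. Limma 3.58.1 (R 4.3.3) was run on log2(value + 1) with a mean-variance trend, which was added after a test on simulated data; shares have exact 95% intervals (SciPy 1.17.1). Differences of means were taken as log2 with 1 added to each mean. Genes and promoter windows came from RefSeq, GRCm38.p6, whose coordinates are those of mm10.

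Members and lists were chosen with earlier results of these data known. Regions were named by rule: per list and direction, up to 3 genes with the smallest adjusted p among regions without overlap and with at least 20 reads outside the near-empty library; per direction, the 10 largest folds inside genes with at least 10 reads in each library of the higher group except the near-empty one; the 10 genes with the most regions, and the 10 with at least 5 regions all in one direction; every chromosome, and the 5 highest and 5 lowest bins; and Tet1, Tet2 and Tet3. The text gives those that the results turn on. The promoter pattern, the printed promoters, gene length and the leading regions of Flg2, Aff3, Nedd4l and Wwox were chosen after values were seen. Alternatives varied the adjusted p, the repeated library, a minimum level, the scaling, the gene bounds and each library left out.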

Additional observations from a re-analysis of the deposited data

How the results depend on the processing

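With a mean of at least 10 normalized counts, 20621 regions were higher and 11453 lower, so the share higher moved from 34.6% to 64.3%. It moved to 92.4% over promoter windows, 97.4% with over 20 CpG, 37.6% with up to 5 CpG and 61.9% away from promoters. With the libraries scaled to equal totals, which moved the median log2 difference of all listed regions by 0.14, these shares were 32.8% over all, 80.3% over promoters, 90.9% with over 20 CpG and 30.6% away from promoters. With each library left out in turn, changed regions ranged from 22068 to 34934 higher and from 30315 to 43179 lower, the share higher from 33.8% to 53.5%, over promoters from 82.6% to 87.3%, with over 20 CpG from 93.6% to 95.9%, with up to 5 CpG from 18.6% to 42.9%, and away from promoters from 31.6% to 52%. Regions without overlap ranged from 15731 to 19734 higher and from 12352 to 34912 lower. The 34912 came from leaving out the near-empty library and the 19734 from leaving out the second-listed WT DMM library. The 53.5% came without the third-listed library, where the near-empty one, mostly at 0, lowers the WT DMM mean. Without the near-empty and third-listed libraries the shares higher were 33.8% over all, 60.1% over promoters and 64.9% with over 20 CpG. Without the near-empty and second-listed libraries they were 33.3% over all and 30.9% away from promoters. Limma's counts ranged from 0 to 3854 higher and from 0 to 6519 lower. They were 108 and 0 without the deeper MUT DMM library, where the lone MUT DMM library is assumed to vary like the WT DMM ones, and 0 and 0 when each of the shallower MUT DMM, second-listed and third-listed WT DMM libraries was left out. Without the near-empty library and with a mean of at least 10 they were 3611 and 5358, and without a mean-variance trend 0 and 0; these settings, the omission of a pair of libraries and those of the promoter shares were all chosen after seeing the data. Of 1152 values of named regions recomputed, 6 changed sign: with equal totals Col12a1 (-0.17), Epyc (-0.15) and Ikzf1 (-0.01), without the third-listed WT DMM library a pair of Tet1 regions, and without the deeper MUT DMM library 1 Tet3 region, all as log2 differences. With each library left out in turn, the Tet1 regions ranged from -1.08 to 0.07 and from -1.69 to 0.78, and the Tet3 region from -1.28 to 0.14. Of 374 list counts 22 moved, 16 of them at the minimum level, and of 189 chromosome shares 74 moved. The cause of these changes was not tested. No paired analysis was possible because the joined values carry no replicate numbers. EdgeR was not run. Of 144 named regions 33 overlapped a region of MUT DMM against WT sham by at least 50% and 40 by any base, and 10 and 10 overlapped one of WT DMM against WT sham. The 52972 reads of the near-empty library and the 407929 of the shallower MUT DMM library limit the precision of single regions.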
